A study of Rattus norvegicus with 8 samples.

Results

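The voltage-gated sodium and calcium channel genes encode the pores that open when a neuron depolarises and the smaller subunits that travel with them. Members were taken as every array probe whose gene name begins with Cacna, Cacnb or Cacng, or with Scn followed by a digit. The rule found 39 genes of 35561 gene names and accessions on the array, read by 55 of 41012 probes. Of these, 20 are pore-forming, 10 sodium channel alpha subunits and 10 calcium channel alpha1 subunits. The other 19 are auxiliary, 4 sodium channel beta subunits, 3 calcium channel alpha2delta subunits, 4 calcium channel beta subunits and 8 calcium channel gamma subunits.

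Sodium channels carry the rising phase of the action potential, and their beta subunits tune gating and bind cell adhesion partners. Calcium channels turn depolarisation into calcium entry, which triggers transmitter release at terminals and signals to the nucleus from the cell body and dendrites. In the hippocampus the CA3 pyramidal neurons fire in bursts and excite each other, and calcium entry through these channels is among the events known to follow head injury.

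The study used male Sprague-Dawley rats and asked how the RNA of neurons that die after brain injury differs from that of neighbours that survive. Sections were stained with Fluoro-Jade, a dye that marks degenerating neurons, and neurons of the CA3 field were cut out by laser. RNA was pooled from several rats per array, amplified and measured on 8 single-colour whole-genome arrays, 2 in each of 4 groups. Naive rats had no treatment and sham rats had the sham procedure. Neurons without the dye (surviving) and with it (dying) came from rats with moderate fluid percussion injury, from which brains were taken 24 hours later, and each such pool held about 600 neurons. Surviving neurons were taken next to dying ones, and each array is 1 pool, so that the p-values measure the spread between pools and not between rats. The labels give 2 amplification kits without saying which pool had which.

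Values are log2 of the processed signal divided by the median of its array, so that 0 is the middle probe of an array and a step of 1 is a doubling. The median signal before this division was 27.2 and 22.7 on the naive arrays, 16.5 and 16.4 on sham, 52.2 and 48.2 on surviving and 19.2 and 52.6 on dying. The scanner software marks a spot as well above background where it is clearly brighter than its surroundings. A probe so marked is called measured here. This held for 55.7 and 54.6 percent of probes on the naive arrays, 51 and 49.2 on sham, 71.6 and 66.1 on surviving and 58.8 and 68.4 on dying. No spot was saturated, and precision is limited by the 2 arrays per group.

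The replicates of the dying group lie apart. Among 15250 probes measured on all 8 arrays, the median distance between the 2 dying arrays was 0.78 on the log2 scale, and 38 percent of the probes were more than 1 apart. The same distance was 0.32 in sham, 0.33 in surviving and 0.62 in naive neurons. The main results on dying neurons are therefore given also without each dying array. Such a fit leaves 1 dying array, whose spread is then assumed equal to that of the other groups, which lay closer together. What passes in it describes that array and does not test the dying group. The surviving and dying arrays share 1 slide and the naive and sham arrays another, so that in any comparison of injured neurons with sham the injury and the slide cannot be told apart.

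Marker genes of each cell type were read as the sum of their scaled signals on each array, each list being given as 1 total. Calls on single marker genes stand beside 18.9 percent of all probes called in surviving and 44.1 percent in dying against sham neurons. The pyramidal neuron list (5 of 10 genes with a probe, Nrgn the brightest) summed to 4680 and 6750 (naive), 8660 and 7830 (sham), 5440 and 5650 (surviving) and 2980 and 3000 (dying). Nrgn, Neurod2, Camk2a and Slc17a7 were measured on all 8 arrays, so that the labelled cell type was present on each. Grin2b, the other gene of the list, was well above background on 1 surviving and 1 dying array. Nrgn, a calmodulin-binding protein of pyramidal neurons, fell by 1.47 on the log2 scale in dying against sham neurons (adjusted p = 0.0253), the 1 call among 4 genes tested. Without dying 1 it did not pass (−1.49, adjusted p = 0.0562), and without dying 2 it did (−1.46, adjusted p = 0.0362). The list then had 0 of 4 called without dying 1, and 1 higher and 3 lower of 5 without dying 2.

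The microglia and macrophage list (10 of 10 genes, C1qa the brightest) summed to 162 and 317 (naive), 324 and 282 (sham), 324 and 348 (surviving) and 2010 and 1120 (dying). In dying against sham neurons 4 of 8 tested genes of this list rose: Tyrobp, Cd68, C1qb and C1qa. Of all 25623 probes tested there, 3863 were called higher and 7426 lower. The first 3 passed also with either dying array left out, and C1qa lost the call without dying 1 (1.73, adjusted p = 0.0687). Between surviving and dying neurons limma called 0 of 9, with 6 lower in surviving neurons at an unadjusted p under 0.05. Without dying 1 it called 0 of 9, and without dying 2 it called 1 higher and 4 lower. Ctss fell in surviving against sham neurons, 1 call of 9. Ptprc, Cx3cr1 and Itgam were at background in naive and sham neurons, Ptprc also on both dying arrays and Cx3cr1 on dying 1. The part of these markers in the channel results was not tested. Fewer cells of a type and less RNA per cell cannot be told apart in such pools.

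The interneuron list (9 of 9 genes, Cck the brightest, a gene that pyramidal neurons also express) summed to 1680 and 2440 (naive), 2130 and 2310 (sham), 2460 and 2570 (surviving) and 7070 and 2010 (dying). Of its 9 tested genes Gad1 and Reln fell in surviving against sham neurons. Gad1 and Pvalb fell in dying against sham neurons, Pvalb not without dying 1. The means of 4 of the 9 were higher in dying than in sham neurons, with 0 called. Among these Cck read 12.30 on dying 1 and 10.56 on dying 2, and Npy 10.37 and 8.39. Gad2 was not well above background on any naive or sham array. The astrocyte list (7 of 8 genes, Slc1a3 the brightest) summed to 868 and 1020 (naive), 1470 and 926 (sham), 493 and 512 (surviving) and 1220 and 541 (dying). Of this list Gfap alone had a higher mean in dying than in sham neurons, at 1.10 on dying 1 and 3.62 on dying 2. Gja1 fell in both injured groups against sham, and Slc1a2 in dying neurons, of 6 genes tested each time, and both passed also with either dying array left out.

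The oligodendrocyte list (6 of 8 genes, Mog the brightest) summed to 183 and 272 (naive), 239 and 305 (sham), 65 and 69.2 (surviving) and 181 and 78.7 (dying). Of its 6 genes Mog fell in surviving and Cnp1 and Mobp fell in dying against sham neurons, Cnp1 not without dying 1 and Mobp not with either dying array left out. The oligodendrocyte precursor list (5 of 5 genes, Olig1 the brightest) summed to 444 and 418 (naive), 640 and 476 (sham), 289 and 307 (surviving) and 1110 and 581 (dying), and Pdgfra fell in surviving against sham neurons. The endothelium and pericyte list (7 of 8 genes, Pdgfrb the brightest, Tek on no array) summed to 58.7 and 83.7 (naive), 82.1 and 62.5 (sham), 66.5 and 55.4 (surviving) and 290 and 106 (dying). Flt1 rose in both injured groups and Vwf in dying neurons, of 6 genes tested, Vwf not without dying 1 (adjusted p = 0.077). The sums of all these lists but the pyramidal one were higher on dying 1 than on dying 2. Between surviving and dying neurons limma called 0 genes of any marker list with both dying arrays or without dying 1. Without dying 2 it called 2 pyramidal genes and 1 astrocyte gene higher in surviving neurons, and 3 interneuron genes, 1 oligodendrocyte gene, 2 precursor genes and 2 endothelial genes lower. These calls arise in the same setting as the channel calls, and their part in the channel results was not tested. The share of all probes called in that setting is given with the channel probes below.

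Where a gene had several probes, the brightest over all arrays stands for it. By these probes 18 of the 39 channel genes passed the background mark on all 8 arrays, 17 on some and 4 on none. The 4 on none were Cacna1f, the retinal calcium channel pore, Scn4a, the sodium channel of skeletal muscle, and the gamma subunits Cacng4 and Cacng5. Among pore-forming genes 8 of 20 were measured on every array: Scn1a, Scn2a1 (named Scn2a today), Scn3a, Cacna1b, Cacna1c, Cacna1d, Cacna1e and Cacna1h. Among auxiliary genes 10 of 19 were, among them Scn2b, Scn3b, Scn4b, Cacna2d1, Cacnb1, Cacnb3, Cacnb4, Cacng2 and Cacng3. The number of channel genes well above background was 26 and 23 on the naive arrays, 23 and 25 on sham, 32 and 33 on surviving and 27 and 29 on dying.

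**Figure D1:**
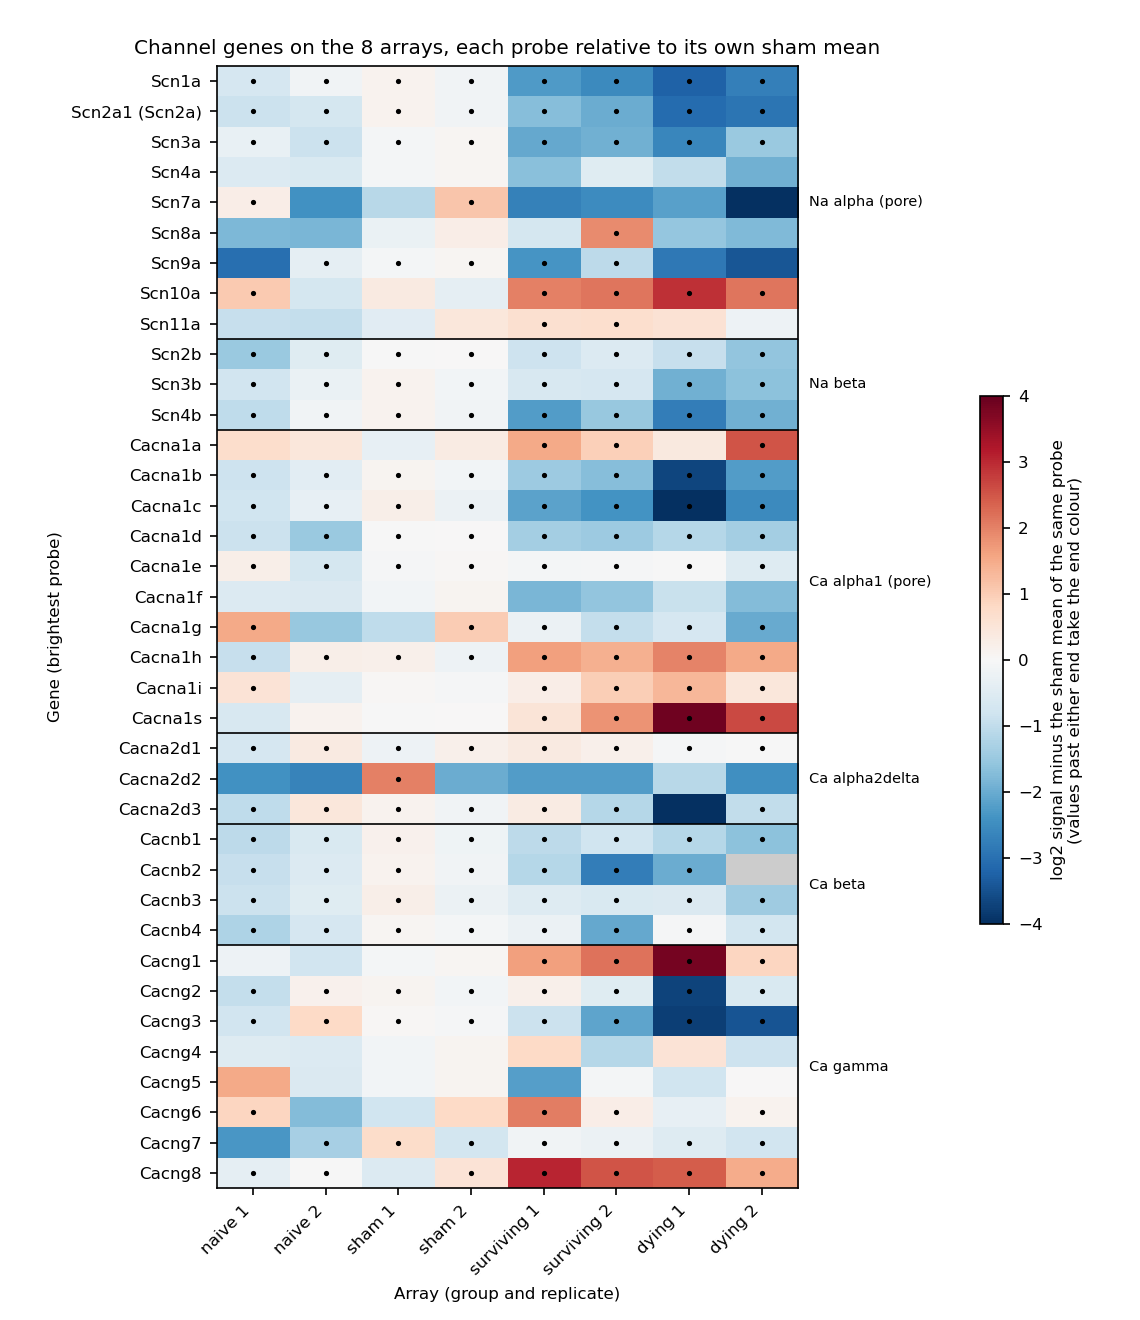
Channel genes (vertical axis, grouped by subunit class) on the 8 arrays (horizontal axis), coloured by log2 signal minus the mean of the sham arrays for the same probe, with a dot where the probe was well above background and grey where it had no value. Scn1a, Scn2a1 and Cacna1c are blue on all 4 injured arrays and Cacng8 is red on all 4, while dying 1 and dying 2 differ for Cacng2, Cacna2d3 and Cacng1.

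The comparison of surviving with dying neurons addresses which channel RNAs go with survival of the same injury. Signals of the sodium channel beta subunit Scn3b, of the neuronal gamma subunits Cacng2 and Cacng3 and of the pores Scn2a1, Cacna1b and Cacna1c were higher in surviving neurons, and that of Cacna1s was lower. No channel probe passed the test that was adjusted over all probes: limma called 0 of 42 channel probes and 0 of 27391 probes in all (0 percent). At an unadjusted p under 0.05 there were 8 channel probes, 7 of them higher in surviving neurons, beside 5896 of all probes (21.5 percent). A filter after the study's methods asked for signal on all 4 arrays, replicates within 1.5 times of each other and a fold over 2. The ratio of 1.5 is a reading of their wording. The study also centred each gene on its median and stated its fold against sham, so that its own list may differ. The filter kept 2 of 34 channel probes, both higher in surviving neurons, beside 4.92 percent of all probes. They read Scn2a1 and Scn3b.

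Of 26 genes well above background on all 4 arrays of this comparison, 19 were higher in surviving neurons and 7 lower. In 13 of the 19 and 1 of the 7 the arrays of the groups did not overlap, beside 50.9 percent of 21253 probes measured on all 4 arrays (27.6 percent higher, 23.3 percent lower). The median difference was 0.34 over 18 pore-forming genes and 0.48 over 17 auxiliary genes, each taken over the genes measured on at least 1 array. Over genes measured on all 4 arrays the medians were 0.14 and 0.48, beside 0.02 for the 21253 probes so measured. The pore-forming median was 0.35 without dying 1, 0.07 without dying 2 and 0.10 with all probes of a gene averaged. The auxiliary median was 0.78 without dying 1 and 0.34 without dying 2. Against dying 1 alone the mean of the surviving arrays was higher for 14 of the 18 genes measured everywhere (median 0.72), and against dying 2 alone for 15 of 18 (median 0.47). Without dying 2, which leaves dying 1 as the only dying array, limma called 8 of 42 channel probes, 6 higher and 2 lower in surviving neurons, beside 5994 of 28209 probes in all (21.2 percent). Without any other single array it called 0 of either. The filter kept 6 channel probes without dying 1, 7 without dying 2 and 4 without surviving 2, beside 14.9, 30.7 and 9.41 percent of all probes.

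Scn3b encodes a sodium channel beta subunit that binds the pore without a covalent link. It read 12.10 and 12.60 (naive), 13 and 12.75 (sham), 12.23 and 12.20 (surviving) and 10.95 and 11.22 (dying). The 2 dying arrays were the lowest of the 8. The surviving mean was 2.19-fold higher, by 1.13 with a standard error of 0.43 (adjusted p = 0.194), which did not pass the test. The differences from the single dying arrays were 1.26 and 0.99.

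Scn2b and Scn4b are beta subunits joined to the pore by a disulfide bond. Scn2b read 2.02 and 3.03 (naive), 3.47 and 3.53 (sham), 2.66 and 2.96 (surviving) and 2.58 and 1.91 (dying). Scn4b read 7.90 and 8.79 (naive), 9.05 and 8.79 (sham), 6.68 and 7.39 (surviving) and 6.14 and 7.01 (dying). The surviving arrays of Scn2b lay just above the dying ones, while the groups of Scn4b overlapped. The difference was 0.57 for Scn2b (adjusted p = 0.554). That of Scn4b was 0.46 (adjusted p = 0.661). Against dying 1 and dying 2 alone they were 0.23 and 0.90 for Scn2b, and 0.89 and 0.03 for Scn4b.

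Among sodium channel pores, Scn2a1 encodes the channel found mainly on axons of excitatory neurons. It read 8 and 8.17 (naive), 9.01 and 8.71 (sham), 7.15 and 6.89 (surviving) and 5.78 and 5.95 (dying). The arrays fell into 3 levels that did not overlap, with naive and sham highest, surviving in between and dying lowest. The surviving mean was 2.23-fold above the dying mean, by 1.16 with a standard error of 0.42 (adjusted p = 0.179), which did not pass the test. The difference was 1.24 against dying 1 and 1.07 against dying 2. The 2 other probes of this gene were also higher in surviving neurons, by 1.52 and 3.16, the second of these at background on dying 1.

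The other alpha subunits measured everywhere are Scn1a, the pore found largely in inhibitory neurons, and Scn3a, strongest in the developing brain. Scn1a read 3.97 and 4.49 (naive), 4.77 and 4.51 (sham), 2.37 and 2.1 (surviving) and 1.41 and 1.90 (dying). Scn3a read 3.34 and 2.78 (naive), 3.56 and 3.72 (sham), 1.59 and 1.73 (surviving) and 1.04 and 2.17 (dying). The surviving arrays of Scn1a lay above the dying ones, and those of Scn3a lay between the 2 dying arrays. Surviving minus dying was 0.58 for Scn1a (adjusted p = 0.495). It was 0.05 for Scn3a (adjusted p = 0.966). Against dying 1 and dying 2 alone Scn1a gave 0.83 and 0.33, and Scn3a 0.62 and −0.51.

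**Figure D2:**
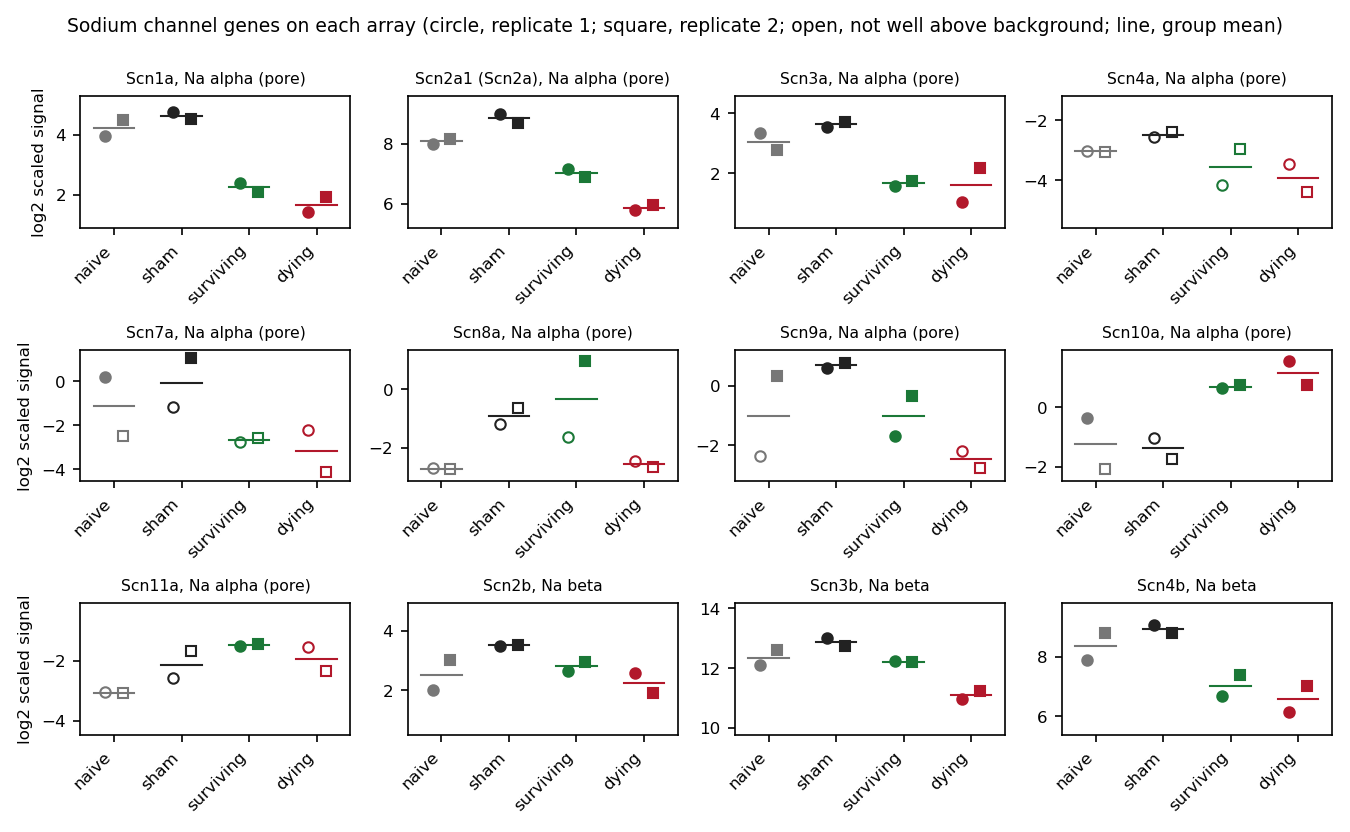
Sodium channel genes, 1 panel each, with log2 scaled signal (vertical axis) by group (horizontal axis); circles are replicate 1, squares replicate 2, open symbols are not well above background and lines are group means. Scn2a1 steps down from sham (9.01 and 8.71) over surviving (7.15 and 6.89) to dying neurons (5.78 and 5.95), and Scn10a is higher on all injured arrays than on any other.

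Among calcium channel pores, Cacna1b encodes the N-type channel that triggers transmitter release. It read 6.37 and 6.78 (naive), 7.32 and 7.10 (sham), 5.77 and 5.52 (surviving) and 3.54 and 4.96 (dying). Both surviving arrays were above both dying arrays and below the rest. The surviving mean was 2.63-fold higher, by 1.39 with a standard error of 0.56 (adjusted p = 0.205), which did not pass the test. It was 0.68 without dying 1 and 2.11 without dying 2, each resting on 1 dying array. The other probe of this gene gave −0.12.

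Cacna1c encodes an L-type channel whose calcium signals reach the nucleus. This probe, spotted 10 times on each array, read 4.73 and 5.19 (naive), 5.75 and 5.28 (sham), 3.36 and 3.11 (surviving) and 1.34 and 2.98 (dying). Dying 1 was far below the other arrays, while dying 2 came close to the surviving ones. The difference was 1.07 with a standard error of 0.61 (adjusted p = 0.344). It was 1.89 against dying 1 and 0.25 against dying 2.

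Cacna1s, the L-type pore of skeletal muscle, went the other way. It read −2.67 and −1.88 on the naive arrays and −2.03 and −2 on sham, none of them well above background, then −1.49 and −0.23 on surviving and 1.87 and 0.64 on dying. Both dying arrays were above both surviving arrays. The dying mean was 4.33-fold higher, a surviving minus dying difference of −2.12 with a standard error of 0.63 (adjusted p = 0.136), which did not pass the test. The difference was −1.5 without dying 1 and −2.73 without dying 2, each resting on 1 dying array. A further probe of the gene gave 0.03.

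The remaining calcium channel pores measured everywhere differed little between the injured groups. Cacna1d, an L-type pore that opens at lower voltages, read 2.75 and 2.14 (naive), 3.6 and 3.63 (sham), 2.27 and 2.15 (surviving) and 2.46 and 2.24 (dying). Cacna1e, the R-type pore, read 2.52 and 1.59 (naive), 2.24 and 2.32 (sham), 2.21 and 2.23 (surviving) and 2.26 and 1.75 (dying). Cacna1h, a T-type pore that opens near rest, read −0.18 and 0.99 (naive), 0.94 and 0.56 (sham), 2.40 and 2.18 (surviving) and 2.73 and 2.25 (dying). The surviving and dying arrays overlapped for all 3 genes. Surviving minus dying was −0.14 for Cacna1d (adjusted p = 0.881). It was 0.21 for Cacna1e (adjusted p = 0.835) and −0.20 for Cacna1h (adjusted p = 0.862). The single dying arrays gave −0.25 and −0.03 for Cacna1d, −0.04 and 0.47 for Cacna1e, and −0.44 and 0.04 for Cacna1h.

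Cacng2 and Cacng3 belong to the gamma subunits known as TARPs, which carry AMPA receptors to synapses. Cacng3 read 3.65 and 5.22 (naive), 4.48 and 4.37 (sham), 3.56 and 2.33 (surviving) and 0.66 and 0.97 (dying). Cacng2, also called stargazin, read 3.43 and 4.56 (naive), 4.51 and 4.28 (sham), 4.60 and 3.92 (surviving) and 0.68 and 3.79 (dying). Both dying arrays were the lowest for Cacng3, whereas for Cacng2 dying 1 alone stood apart. The surviving mean of Cacng3 was 4.37-fold higher, by 2.13 with a standard error of 0.65 (adjusted p = 0.138). The difference of Cacng2 was 2.03 with a standard error of 0.94 (adjusted p = 0.258), and neither passed the test. Against the single dying arrays it was 2.28 and 1.97 for Cacng3 and 3.58 and 0.47 for Cacng2.

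The alpha2delta and beta subunits bring calcium channel pores to the membrane. Cacna2d1, the binding site of gabapentin, read 9.16 and 10.18 (naive), 9.63 and 10.04 (sham), 10.20 and 10.04 (surviving) and 9.80 and 9.83 (dying). Cacna2d3 read 2.96 and 4.45 in naive, 4.14 and 3.83 in sham, 4.32 and 2.84 in surviving and 3.01 on dying 2, and −0.22 on dying 1, where it was not well above background. For Cacna2d1 the surviving and dying arrays lay within 1 step of each other, whereas Cacna2d3 was low on dying 1 alone. Surviving minus dying was 0.30 for Cacna2d1 (adjusted p = 0.759). It was 2.18 for Cacna2d3 (adjusted p = 0.274). For Cacna2d3 it was 3.80 against dying 1, which is at background, and 0.57 against dying 2.

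Cacnb1 read 7.84 and 8.28 (naive), 9.05 and 8.70 (sham), 7.83 and 8.07 (surviving) and 7.72 and 7.24 (dying). Cacnb3 read 9.16 and 9.53 (naive), 10.24 and 9.79 (sham), 9.51 and 9.39 (surviving) and 9.43 and 8.60 (dying). These subunits bind the pore from the cytoplasmic side. Cacnb4 read 0.61 and 1.17 (naive), 1.93 and 1.76 (sham), 1.61 and −0.20 (surviving) and 1.79 and 1.10 (dying). Cacnb2 read 8.48 and 8.84 in naive, 9.54 and 9.26 in sham, 8.26 and 6.63 in surviving and 7.40 on dying 1, with no value on dying 2, where its spot was left out. The surviving arrays were above the dying ones for Cacnb1, and overlapped them for the others. Over the 4 beta subunits the median difference was 0.24, with 3 higher in surviving neurons.

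**Figure D3:**
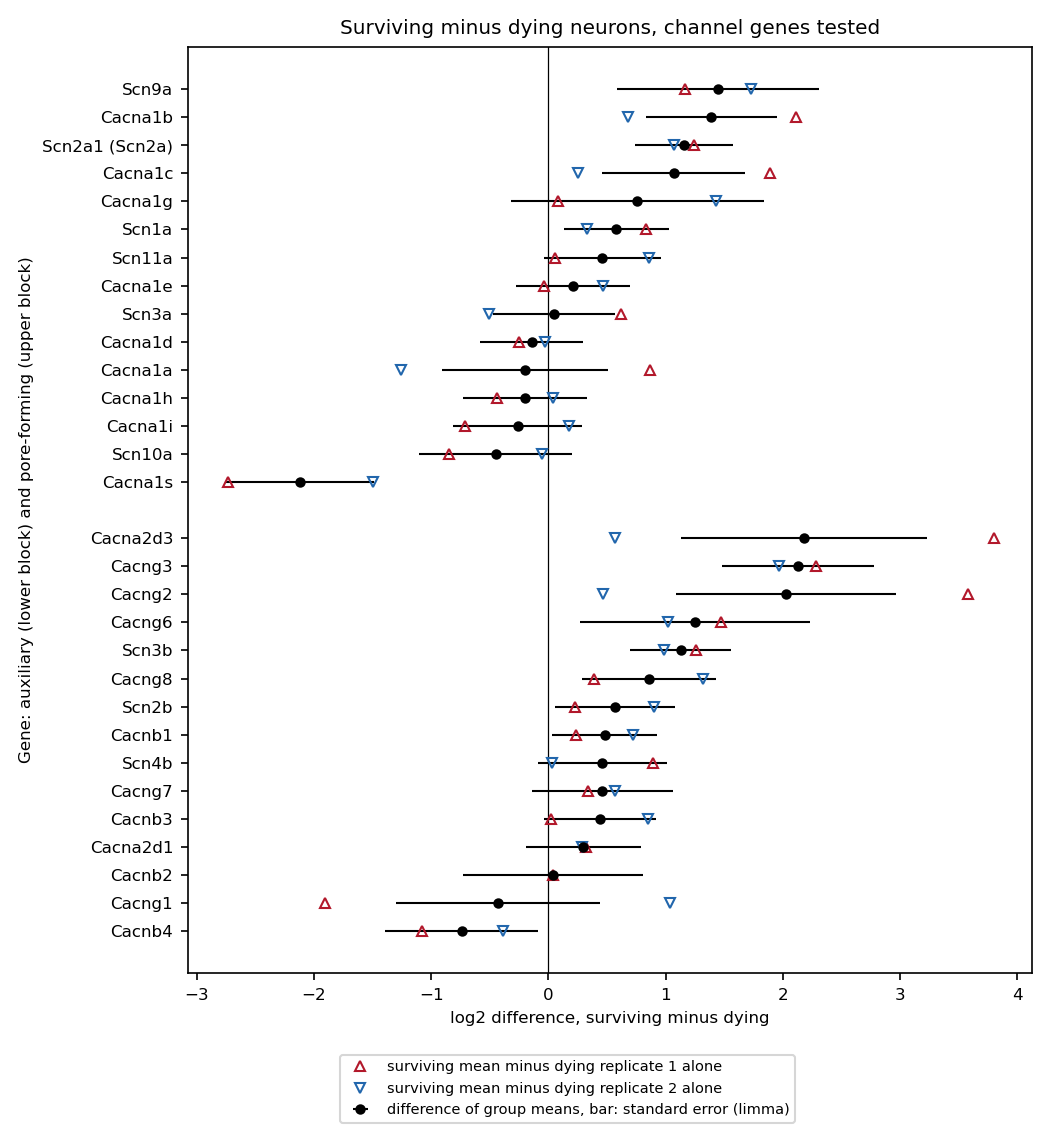
Log2 difference of surviving minus dying neurons (horizontal axis) for channel genes tested (vertical axis); black points are differences of group means with standard errors as bars, and triangles give the surviving mean minus each dying array alone. Cacng3, Scn3b and Scn2a1 lie right of 0 against either dying array, whereas Cacng2 and Cacna2d3 lie far from 0 against dying 1 and near it against dying 2.

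The comparisons of injured with sham neurons address which channel RNAs go with injury, and since both use the same 2 sham arrays their values are given side by side. By the brightest probe of each gene, the RNA of the pores Scn1a, Scn2a1, Scn3a and Cacna1c and of the beta subunit Scn4b fell in surviving and in dying neurons. In dying neurons that of Scn3b, Scn9a, Cacna1b, Cacnb1 and Cacng3 fell as well, and the probes of Cacna1d passed in opposite directions. The RNA of Cacng8 rose in both, and that of Scn10a, Cacna1s and Cacna1h rose in dying neurons. Each direction holds for the scaling to the array median, in which the median of all measured probes was itself −0.82 and −0.90. Of the falls in surviving neurons, that of Scn1a alone was called also under the other scalings without normexp. Another probe of Scn2a1 gave 0.42 in surviving neurons. The effect of other scalings is given with the counts.

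In surviving against sham neurons limma called 8 of 42 channel probes, 3 higher and 5 lower, beside 18.9 percent of all probes, 1834 higher and 3240 lower. The share of channel probes called was 19 percent, close to that of all probes. In dying against sham neurons it called 20 of 38, 7 higher and 13 lower, beside 44.1 percent of all probes, 3863 higher and 7426 lower. That was 52.6 percent of the channel probes. The filter of the methods kept 8 of 25 channel probes in surviving neurons (1 higher, 7 lower; 26.6 percent of all probes) and 7 of 21 in dying neurons (1 higher, 6 lower; 18.5 percent of all probes). Of the brightest probe of each gene, limma called 2 higher and 5 lower of 32 tested in surviving neurons and 5 higher and 12 lower of 29 tested in dying neurons, Cacna1d among the 12. Of 22 genes measured on all 4 arrays, 17 lay wholly below and 2 wholly above sham in surviving neurons, beside 65.5 and 11.7 percent of 18171 probes. In dying neurons 14 and 1 of 19 did, beside 56.3 and 18.1 percent of 16180 probes. A lack of overlap with sham, as given below for single genes, is thus common on the array.

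The scale of these comparisons moves with the scaling. Divided by the array median, the median of all probes well above background on the 4 arrays was −0.82 in surviving and −0.90 in dying against sham neurons. It was −0.04 and −0.17 with scaling to the upper quartile, 0.15 and 0.11 with scaling to the probes measured on all arrays, −0.10 and −0.09 after quantile normalization and 0.06 and −0.10 in the authors' series values. The calls in surviving neurons split into 7 higher and 1 lower with the upper quartile, 11 and 1 with the probes measured on all arrays, 3 and 1 with quantiles and 9 and 1 with the authors' values. In dying neurons the same splits were 11 and 10, 12 and 6, 6 and 8, and 11 and 7. These splits count channel probes alone, with no share of all probes beside them, so that they do not set the channels apart from other genes. With a normexp background correction limma called 0 channel probes in either comparison, again with no share of all probes beside it.

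Relative to the all-probe median, 13 of 22 channel genes measured on all 4 arrays were lower in surviving neurons and 9 higher, with a median of −0.34. In dying neurons 14 of 19 were lower and 5 higher, with a median of −0.88. The 9 pore-forming genes of the first comparison had a median of −0.87 and the 13 auxiliary genes 0.13. In the second, the medians were −1.60 over 8 pore-forming and −0.50 over 11 auxiliary genes. Over genes measured on at least 1 array the difference itself had a median of −0.33 for pore-forming and −0.65 for auxiliary genes in surviving neurons. In dying neurons it was −1.31 and −1.40, and under the other 5 scalings and corrections these 2 medians kept their sign while those of surviving neurons did not.

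**Figure D4:**
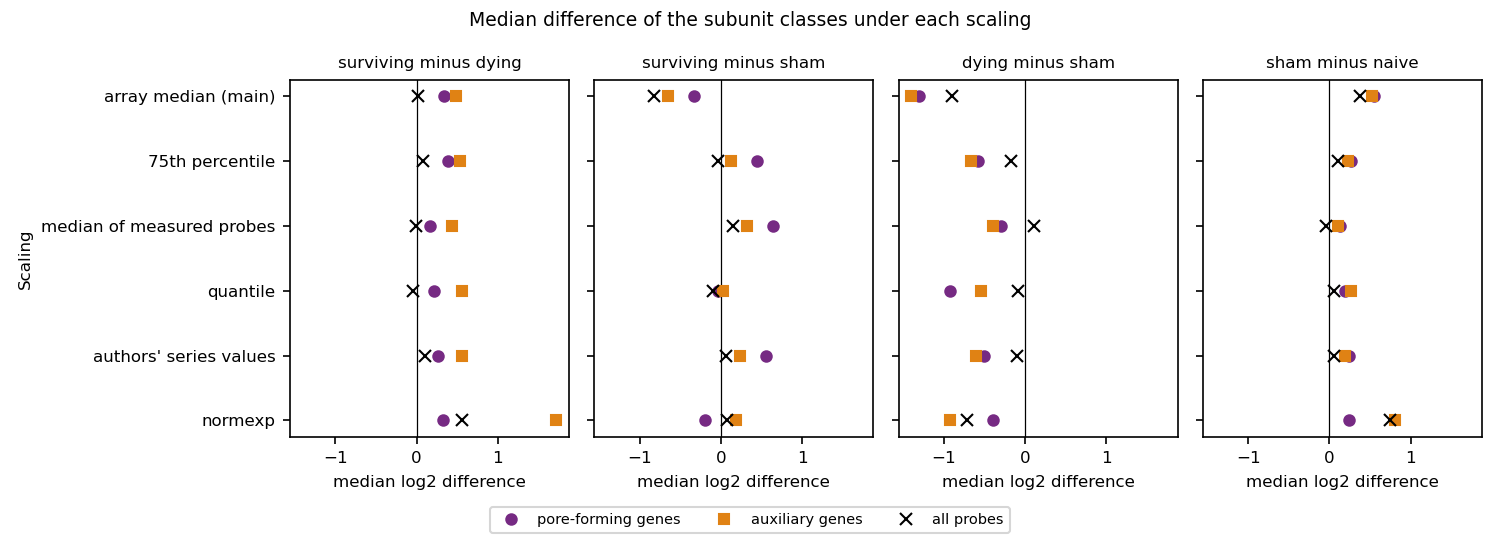
Median log2 difference (horizontal axis) of pore-forming genes (circles), auxiliary genes (squares) and all probes well above background on the arrays compared (crosses) in the 4 comparisons (panels) under each scaling (vertical axis). In surviving minus sham the pore-forming median moves from −0.33 with the array median to 0.64 with the median of measured probes, and in dying minus sham both class medians stay below 0.

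Scn1a was 5.31-fold lower in surviving than in sham neurons, a difference of −2.41 with a standard error of 0.45 (adjusted p = 0.0148). In dying neurons it was 7.92-fold lower, by −2.99 with a standard error of 0.45 (adjusted p = 0.00296). All 4 injured arrays of this pore lay below all 4 naive and sham arrays. Against sham alone, 65.5 percent of measured probes did so in surviving and 56.3 percent in dying neurons. Less the all-probe median the differences were −1.59 and −2.09. Of the 5 genes that fell in surviving neurons, Scn1a alone kept the call under the upper quartile, the probes measured on all arrays, quantiles and the authors' values.

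Scn2a1 was 3.59-fold lower in surviving (difference −1.84, adjusted p = 0.0249) and 7.99-fold lower in dying neurons (difference −3, adjusted p = 0.00238), each with a standard error of 0.42. The 2 other probes of this gene gave 0.42 and −0.06 for surviving neurons, then −1.10 and −3.22 for dying ones, where the last passed (adjusted p = 0.0149). Scn3a was 3.94-fold lower in surviving (difference −1.98, adjusted p = 0.0364) and 4.09-fold lower in dying neurons (difference −2.03, adjusted p = 0.0157). Its injured arrays all lay below the naive and sham ones. Less the all-probe median these differences were −1.02 and −2.1 for Scn2a1 and −1.16 and −1.13 for Scn3a.

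Scn10a, a sodium channel known from sensory neurons, read −0.35 on naive 1 and was not well above background at −2.09 on naive 2 or at −1.03 and −1.74 on sham. It read 0.64 and 0.75 on surviving arrays and 1.55 and 0.75 on dying arrays. All injured arrays were above all others. Where no array of 1 group was measured, the fold is a bound, the bright group's mean set against a limit on each dim array, the weakest signal still called above background there or the probe's own if that is higher. In dying neurons it was at least 2.59-fold above sham (adjusted p = 0.0164), and in surviving neurons at least 1.89-fold, which did not pass (adjusted p = 0.0601). Scn9a, another channel of sensory neurons, read 0.59 and 0.76 (sham), −1.68 and −0.36 (surviving) and −2.19 and −2.75 (dying), the last 2 not well above background. It was at least 5.22-fold lower in dying than in sham neurons (adjusted p = 0.0202), and in surviving neurons its difference was −1.69 (adjusted p = 0.191). The naive arrays of Scn9a read −2.35, at background, and 0.31, nearly as far apart as sham and dying neurons.

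Among beta subunits, Scn4b was 3.69-fold lower in surviving (difference −1.88, adjusted p = 0.0477) and 5.09-fold lower in dying than in sham neurons (difference −2.35, adjusted p = 0.0114). All injured arrays of this gene lay below the sham arrays. Scn3b was 3.44-fold lower in dying neurons (difference −1.78, adjusted p = 0.0136). In surviving neurons the difference of Scn3b was −0.65 (adjusted p = 0.299). Scn2b differed by −0.69 in surviving (adjusted p = 0.353) and −1.26 in dying neurons (adjusted p = 0.0746).

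Among calcium channel pores, Cacna1c was 4.86-fold lower in surviving neurons, by −2.28 with a standard error of 0.60 (adjusted p = 0.0379). In dying neurons it was 10.2-fold lower, by −3.35 with the same standard error (adjusted p = 0.00486). Cacna1b was 7.77-fold lower in dying neurons, by −2.96 (adjusted p = 0.00551), and its difference in surviving neurons was −1.56 (adjusted p = 0.0837). All injured arrays of these pores lay below the naive and sham arrays. Cacna1d was 2.4-fold lower in dying neurons (difference −1.26, adjusted p = 0.0459) by its brightest probe. Its 2 other probes, both at background in sham, were at least 1.22-fold (adjusted p = 0.0838) and at least 4.01-fold higher, where the last passed (adjusted p = 0.0294), so that no direction is given for this gene. In surviving neurons the brightest probe gave −1.41 (adjusted p = 0.0577), and the others were at least 2.21-fold (adjusted p = 0.049) and at least 2.28-fold higher (adjusted p = 0.152).

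Cacna1h was 3.33-fold higher in dying than in sham neurons, by 1.74 with a standard error of 0.52 (adjusted p = 0.0293). In surviving neurons it was 2.9-fold higher, by 1.54, which did not pass with the array median (adjusted p = 0.0756). With the other 4 scalings without normexp the latter passed too, with adjusted p = 0.00978 for the upper quartile, 0.00588 for the probes measured on all arrays, 0.035 for quantiles and 0.00718 for the authors' values. All 4 injured arrays of this T-type pore lay above all 4 naive and sham arrays. Against sham alone, 11.7 percent of measured probes did so in surviving and 18.1 percent in dying neurons. Cacna1s was at least 2.79-fold higher in dying neurons (adjusted p = 0.00604), and in surviving neurons its difference did not pass (adjusted p = 0.22). Cacna1e gave −0.06 in surviving (adjusted p = 0.939) and −0.28 in dying neurons (adjusted p = 0.653).

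Among gamma subunits, Cacng3 was 12.2-fold lower in dying than in sham neurons, by −3.61 with a standard error of 0.64 (adjusted p = 0.00478). In surviving neurons it differed by −1.48 (adjusted p = 0.139). Cacng8, a further TARP that is strong in hippocampus, read −0.46 and −0.11 (naive), −0.64 and 0.46 (sham), 2.97 and 2.44 (surviving) and 2.32 and 1.39 (dying). The value −0.64 was not well above background, so that 1 of the 2 sham arrays measured it. Every injured array was above every other array. Cacng8 rose by 2.80 in surviving (6.98-fold, adjusted p = 0.018) and by 1.95 in dying neurons (3.85-fold, adjusted p = 0.0252), each with a standard error of 0.56. Cacng2 gave −0.14 in surviving (adjusted p = 0.931) and −2.16 in dying neurons (adjusted p = 0.0894).

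The gamma subunit of skeletal muscle, Cacng1, was not well above background on the naive or sham arrays and read 1.53 and 2.06 on surviving arrays and 3.70 and 0.75 on dying arrays. It was at least 3.77-fold above sham in surviving (adjusted p = 0.15) and at least 5.09-fold in dying neurons (adjusted p = 0.0552), and neither passed. Surviving minus dying for Cacng1 was −1.91 against dying 1 alone and 1.04 against dying 2 alone, so that its sign turned. Among calcium channel beta subunits, Cacnb1 was 2.64-fold lower in dying neurons (difference −1.40, adjusted p = 0.0359), the 1 call of the 4 genes, and gave −0.92 in surviving neurons (adjusted p = 0.172). All 4 beta subunits had lower means in both injured groups than in sham, with class medians of −1.03 and −1.20. Less the all-probe median, Cacnb3 gave 0.25 and −0.10. Cacna2d1 gave 0.28 in surviving (adjusted p = 0.702) and −0.02 in dying neurons (adjusted p = 0.978), which is 1.10 and 0.88 above the all-probe median.

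**Figure D5:**
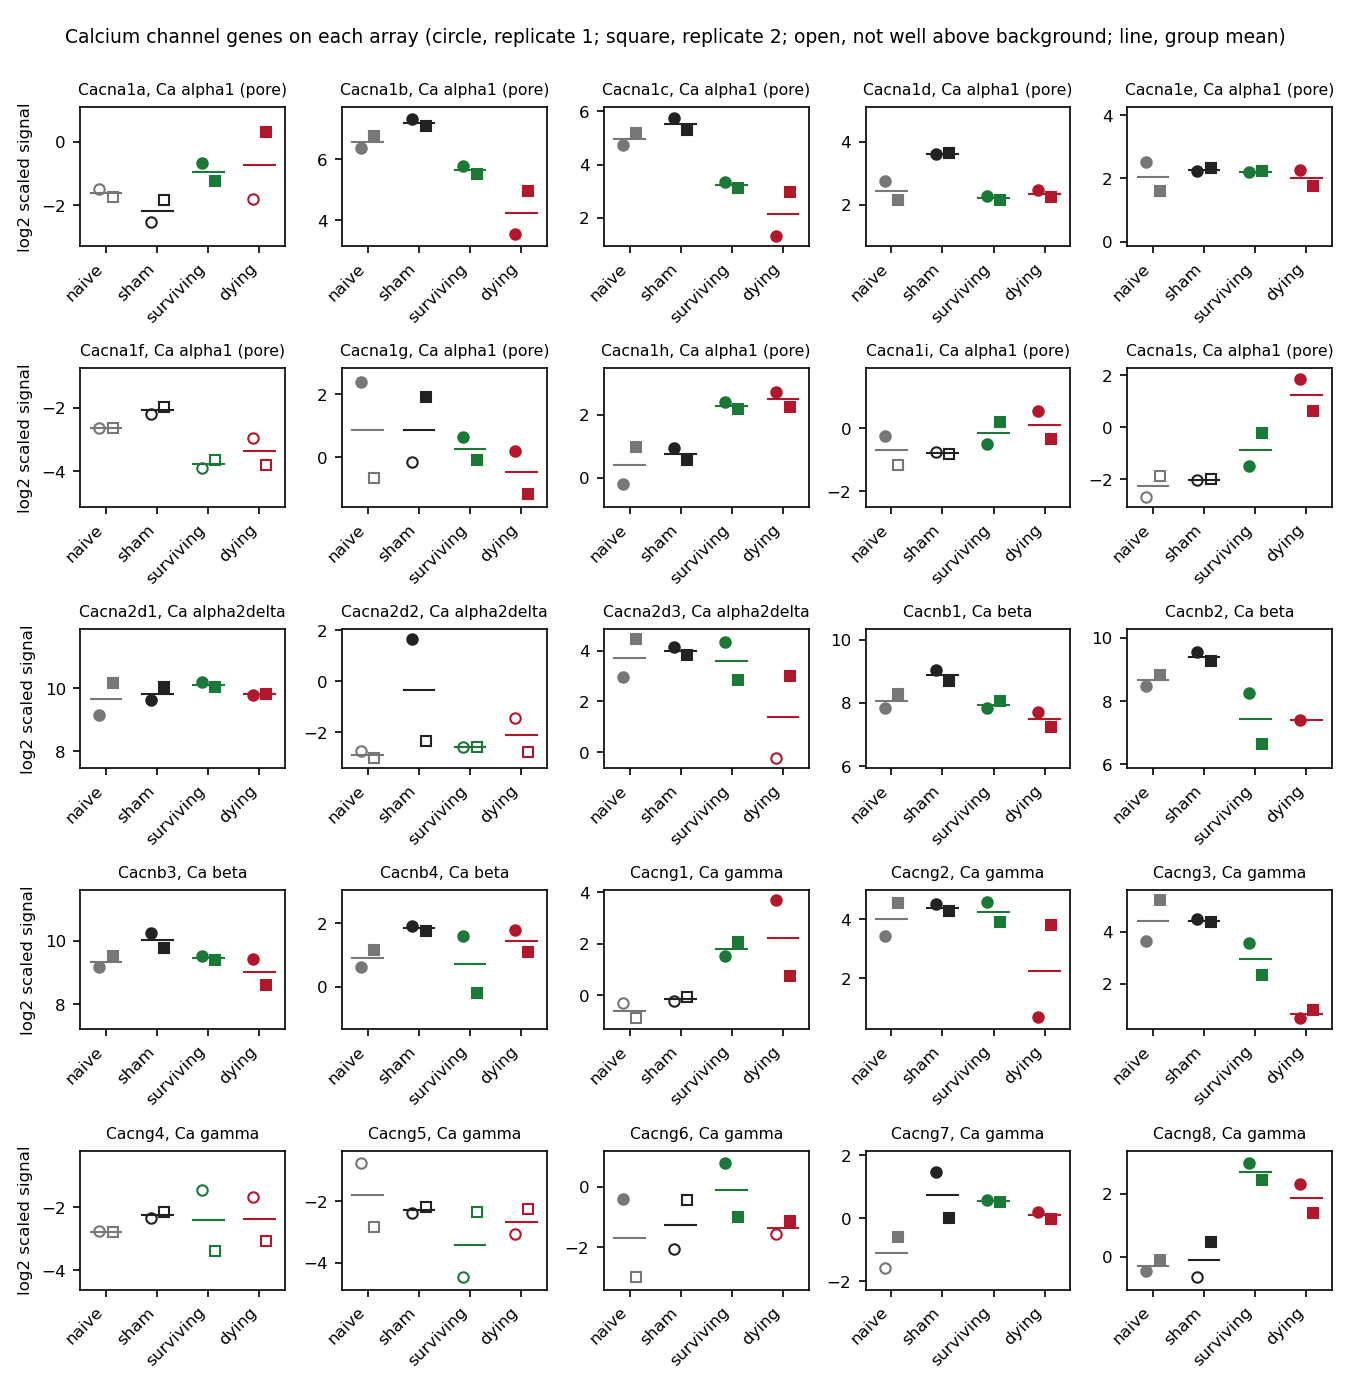
The 25 calcium channel genes, 1 panel each, with log2 scaled signal (vertical axis) by group (horizontal axis); circles are replicate 1, squares replicate 2, open symbols are not well above background and lines are group means. Cacna1b and Cacna1c are lower on all injured arrays than on naive and sham arrays and Cacna1h and Cacng8 are higher, while Cacna2d1 stays between 9.16 and 10.20 on all 8.

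Single arrays carry part of these calls. Without sham 1, sham 2, surviving 1 or surviving 2 the 7 genes called in surviving against sham neurons all lost the call. The channel probes called were then 0, 1, 0 and 0, beside 0.929, 1.87, 1.49 and 1.21 percent of all probes, against 15 with either dying array left out, beside 31.8 percent. The differences kept their direction: Scn1a lay between −2.54 and −2.27 with adjusted p from 0.0896 to 0.137, and Cacng8 between 2.25 and 3.07 where a sham array that measured it was kept. In dying against sham neurons limma called 5 channel probes without sham 1, 10 without sham 2 and 12 without dying 1, beside 11.7, 19.6 and 27.2 percent of all probes. Cacng3, Scn1a and Scn2a1 are among the genes that kept the call without any 1 of the 8 arrays. Cacna1b (−2.85, adjusted p = 0.0533), Cacna1c (−3.12, adjusted p = 0.0502) and Cacna1s (adjusted p = 0.0514) lost it without sham 1 alone.

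The brightest probes of a further 9 genes called in dying neurons lost the call without several of the arrays. Without any 1 array Scn3a lay between −2.60 and −1.47, Scn4b between −2.78 and −1.91 and Scn3b between −1.92 and −1.65, while Scn9a, at background in dying neurons, lost the call with any sham or dying array left out. Cacnb1 lay between −1.64 and −1.16 and Cacna1d between −1.37 and −1.15. Among those called higher, Cacna1h lay between 1.49 and 1.98, Cacng8 was 1.40 without sham 1 and 1.48 without dying 1, where it lost the call, and Scn10a, at background in sham, lost the call with either sham array or dying 1 left out. Of the 12 brightest probes called lower, that of Cacna1d included, 9 kept the call without dying 2 and 8 without dying 1, and of the 5 called higher 5 and 2 did. The filter of the methods kept 14 channel probes without dying 1 and 14 without dying 2, beside 46.4 and 51.6 percent of all probes, and in surviving neurons 14 without surviving 1, beside 40.7 percent. Of the 12 probes, 9 kept the call with the upper quartile, 6 with the probes measured on all arrays, 7 with quantiles and 7 with the authors' values, and the 5 called higher kept it under each of these 4.

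The promoters of the genes that fell in both injured groups are shown. Both comparisons use the same 2 sham arrays, so that a fall in both does not show that the genes moved together. Of these genes Scn1a alone kept its call in surviving neurons under the upper quartile, the probes measured on all arrays, quantiles and the authors' values. RefSeq promoter sequences of the GRCr8 assembly, 300 bases around the start of each gene, were found for 27 of the 39 genes, and for 4 of these 5. Scn1a has no entry. The motifs searched on both strands were the cAMP response element TGACGTCA (1.83 percent of 33469 promoters), the AP-1 site TGANTCA (7.33 percent), the Egr site GCGTGGGCG (0.544 percent), the GC box GGGCGG (33.1 percent), the E-box CACGTG (6.42 percent), the TATA box TATAAA (14.2 percent) and the RE1 parts TTCAGCACC (0.356 percent) and GGACAGC (6.59 percent). Capitals mark the 1 match, to the AP-1 letters in Scn3a at bases 190 to 196, which is a description of the letters and not a site. The windows are chr3:70710706-70711005 (plus strand) for Scn2a, chr3:70666149-70666448 (minus) for Scn3a, chr4:154051699-154051998 (minus) for Cacna1c and chr8:54343623-54343922 (plus) for Scn4b.
Scn2a: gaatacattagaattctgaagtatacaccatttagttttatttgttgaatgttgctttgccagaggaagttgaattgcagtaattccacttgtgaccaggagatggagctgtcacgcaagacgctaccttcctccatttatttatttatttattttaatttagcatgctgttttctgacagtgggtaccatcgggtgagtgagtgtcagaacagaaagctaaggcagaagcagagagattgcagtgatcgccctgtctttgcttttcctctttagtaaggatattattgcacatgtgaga
Scn3a: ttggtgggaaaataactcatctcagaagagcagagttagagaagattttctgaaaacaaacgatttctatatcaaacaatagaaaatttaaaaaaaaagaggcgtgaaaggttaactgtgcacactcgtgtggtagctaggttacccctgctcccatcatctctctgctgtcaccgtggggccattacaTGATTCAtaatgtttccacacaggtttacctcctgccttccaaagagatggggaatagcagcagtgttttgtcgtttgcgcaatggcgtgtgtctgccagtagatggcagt
Cacna1c: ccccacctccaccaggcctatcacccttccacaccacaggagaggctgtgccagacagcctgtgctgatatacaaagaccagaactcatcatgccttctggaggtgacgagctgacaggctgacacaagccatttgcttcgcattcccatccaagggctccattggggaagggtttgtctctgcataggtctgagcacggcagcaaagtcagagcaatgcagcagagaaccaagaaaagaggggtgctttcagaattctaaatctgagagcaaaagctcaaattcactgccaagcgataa
Scn4b: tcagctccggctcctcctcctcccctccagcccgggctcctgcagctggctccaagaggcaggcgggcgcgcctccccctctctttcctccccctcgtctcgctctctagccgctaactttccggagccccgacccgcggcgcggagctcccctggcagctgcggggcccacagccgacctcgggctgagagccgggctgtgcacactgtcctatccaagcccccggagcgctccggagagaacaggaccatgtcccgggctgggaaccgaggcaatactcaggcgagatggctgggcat

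Scn3a, Scn2a, Scn1a, Scn9a and Scn7a are neighbours on the rat genome, and in dying neurons the first 4 fell against sham. In that comparison 44.1 percent of all probes were called, 7426 of 11289 of them lower. Scn9a was at background on both dying arrays, and Scn3a lost its call under every other scaling. Whether the 4 moved together was not tested. Scn7a, a sodium-sensing relative of these channels, was well above background on naive 1 (0.19) and sham 2 (1.03) alone and was not tested. Scn11a, found in sensory neurons, was well above background on the 2 surviving arrays, at −1.50 and −1.45. Its difference from sham was not called in surviving neurons (adjusted p = 0.373).

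The comparison of sham with naive neurons sets the sham procedure beside no treatment, and no difference passed the test. Most channel genes had higher means in sham neurons, as did most probes of the array. Limma called 0 of 27 channel probes and 0 of 20676 probes in all (0 percent). At an unadjusted p under 0.05 there were 3 channel probes, 2 of them higher in sham, beside 997 of all probes (4.82 percent). The filter of the methods kept 0 of 22 channel probes beside 2.14 percent of all probes, and 5 without naive 2, 1 without naive 1 and 1 without sham 2, beside 12.9, 7.89 and 6.19 percent. Of 20 genes measured on all 4 arrays 18 had a higher mean in sham and 2 a lower one. Less the all-probe median of 0.38, which is −0.04 with scaling to the probes measured on all arrays, 14 were higher and 6 lower.

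Among genes measured on all 4 arrays with no overlap, the largest differences were those of Cacna1d (1.17, 2.25-fold), Scn2b (0.97), Cacnb4 (0.96), Cacnb1 (0.81) and Scn2a1 (0.77). For each of these the 2 sham arrays were above the 2 naive arrays, as for 40.6 percent of 18016 probes measured on all 4 arrays. Each had an adjusted p of 0.882. Another probe of Cacna1d, at background in sham, was at least 3.07-fold lower there (adjusted p = 0.64). The median was 0.55 over pore-forming and 0.52 over auxiliary genes, and with scaling to the probes measured on all arrays it was 0.13 and 0.10. Between the 2 naive arrays 6 of the 18 genes measured everywhere were more than 1 apart, and between the sham arrays 0.

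Other members were near the background. Cacna1a, the P/Q-type pore of nerve terminals, was well above background on both surviving arrays (−0.65 and −1.22) and on dying 2 (0.32), and on no naive or sham array. For Scn8a, the pore of the axon initial segment, the brightest probe was measured on surviving 2 alone (0.97) and another on surviving 1 (−1.96) and dying 2 (−1.39). Cacna2d2 was measured on sham 1 alone (1.65). The T-type pores Cacna1g and Cacna1i were measured on 6 and 5 arrays by their brightest probes. Cacna1g read 2.40 and −0.64 in naive and −0.16 and 1.90 in sham, a spread wider than any of its differences between groups. Cacng6 was measured on 4 arrays and Cacng7, a TARP, on 7. None of these passed a test in any comparison.

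For 12 genes the array has several probes, up to 4, and they did not always go the same way. The other probe of Cacna1b was at background in sham and at least 1.02-fold higher in dying neurons (adjusted p = 0.0898), where the brightest gave −2.96. Of the 3 other probes of Cacna1e, 1 at background in sham rated at least 2.59-fold above it for surviving neurons (adjusted p = 0.0614), and the others gave 0.25 and 0.33, where the brightest gave −0.06. For Cacna1s the further probe also rose in dying against sham neurons, at least 1.06-fold (adjusted p = 0.0294). Averaged over all probes of the gene, Scn2a1 differed by −0.49 in surviving against sham neurons (adjusted p = 0.611), and Cacna1b by −0.72 in dying against sham neurons (adjusted p = 0.198).

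Partners of sodium channels, which anchor them at the axon initial segment or carry them to the membrane, were read from 14 of 16 listed genes. Between surviving and dying neurons limma called 0 of 12 tested, with 3 higher in surviving neurons at an unadjusted p under 0.05 and a median of 0.36. Without dying 1 it called 0 of 13 and without dying 2 it called 2 of 12, both higher. The shares of all probes called in these settings stand with the channel probes above. In surviving against sham neurons 1 rose and 2 fell of 12, beside 18.9 percent of all probes called. In dying against sham neurons 1 rose and 7 fell, beside 44.1 percent. Of those that fell, Ank3 read 2.80 and 3.57 on the dying arrays, Csnk2b 7.24 and 7.02, and Fgf13 8.37 and 8.46. Each was below both sham arrays, as were 56.3 percent of 16180 probes measured on all 4 arrays. The gene that rose was S100a10, known to bring the Scn10a channel to the membrane. It read 6.43 and 6.77 (naive), 7.47 and 7.58 (sham), 9.25 and 9.46 (surviving) and 10.05 and 10.03 (dying). Its arrays fell into separate levels, highest in dying neurons. It rose 3.55-fold in surviving (adjusted p = 0.025) and 5.7-fold in dying neurons against sham (adjusted p = 0.00381), and surviving minus dying was −0.68 (adjusted p = 0.378). Against sham it was 2.50 without dying 1 and 2.52 without dying 2, and passed in both (adjusted p = 0.0134 and 0.00518). The genes Ank3, Cntn1, Csnk2b, Nfasc and Nrcam fell in dying against sham neurons, as did the channel-binding factors Fgf13 and Fgf14, which fell in surviving neurons too. Nfasc was not well above background on either dying array, and Cntn1 and Fgf14 were not on dying 1.

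Partners of calcium channels, which modulate them or tie them to release sites, were read from 20 of 22 listed genes. Between surviving and dying neurons limma called 0 of 18 tested, with 4 higher in surviving neurons at an unadjusted p under 0.05 and a median of 1.12. Without dying 1 it called 0 of 19, and without dying 2 it called 6 of 18, all higher. The shares of all probes called in these settings are again those given with the channel probes. Camk2a, a kinase of synaptic plasticity that is also on the pyramidal neuron list, read 3.86 and 5.12 (naive), 4.88 and 4.54 (sham), 5.07 and 4.63 (surviving) and 1.76 and 3.87 (dying). Gnb1, a G protein beta subunit, read 10.93 and 11.00 (naive), 11.82 and 11.57 (sham), 10.79 and 10.64 (surviving) and 8.15 and 9.89 (dying). Rimbp2, which links channels to release sites, read 8.58 and 8.98 (naive), 9.84 and 9.28 (sham), 8.26 and 7.74 (surviving) and 6 and 6.76 (dying). In all 3 both dying arrays were below both surviving arrays, as for 27.6 percent of 21253 probes measured on these 4 arrays.

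The surviving mean was 4.1-fold higher for Camk2a (difference 2.04, adjusted p = 0.181) and 3.24-fold higher for Gnb1 (difference 1.69, adjusted p = 0.171). For Rimbp2 it was 3.08-fold higher (difference 1.62, adjusted p = 0.14). None of the 3 passed with both dying arrays, and without dying 2 all 3 passed, with differences of 3.09, 2.56 and 2 (adjusted p = 0.0219, 0.0151 and 0.0389). In surviving against sham neurons 4 of 18 tested genes fell, among them Calm2, Ppp3ca and Snap25, and 0 rose, beside 18.9 percent of all probes called. In dying against sham neurons 9 of 17 fell, among them again Calm2, Ppp3ca and Snap25, and 0 rose, beside 44.1 percent of all probes called, 7426 of 11289 of them lower. On the dying arrays Calm2 read 7.27 and 7.80, Ppp3ca 7.90 and 8.89, and Snap25 6.20 and 7.63, each below both sham arrays. So were 56.3 percent of 16180 probes measured on all 4 arrays.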

How the data were processed

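RNA of laser-captured CA3 neurons was read on 8 arrays, 2 per group. The processed intensity of each spot came from the authors' run of Agilent Feature Extraction 9.1.3.1, which subtracted background and removed trends across the array, per the file headers, with no normalization between arrays. The authors also deposited raw mean and background intensity and, per the file headers, marks (0 or 1) that a spot is bright over background, non-uniform or saturated. The series table deposited by the authors holds signal values. Each array's column is the processed signal divided by 1 constant (132, 153, 126, 110, 205, 186, 91.4 and 188 in the order naive, sham, surviving, dying), with small values floored: 63.3 to 79.4 percent of probes lay within 1 percent of that ratio. Column medians were 0.218, 0.149, 0.131, 0.149, 0.256, 0.259, 0.212 and 0.282. They are on a linear scale with no gene centring and no direction, and how the constants were chosen stays unknown.

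Spots marked non-uniform were dropped, those of each probe averaged, signals divided by the array median over 41012 probes, as in the methods, floored at 0.01 and log2 transformed. Group means of the 8 arrays were modelled in limma 3.58.1 (R 4.3.3), for probes that both replicates of 1 or both compared groups measured. Benjamini-Hochberg adjustment ran over all probes tested, with a threshold of 0.05, two-sided. The methods filter used a fold of 2 and a replicate ratio of 1.5, the latter a reading of the wording of the methods. The scripts were tested on simulated data. Tables and figures used Python 3.11.15, pandas 2.3.3, numpy 2.4.6 and matplotlib 3.10.9. Of 55 member probes 43 matched the RefSeq annotation by accession, 11 by symbol and 1 by synonym.

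Genes named are those measured on all 8 arrays and, per comparison and direction, up to 5 with the largest difference among genes well above background on the 4 arrays compared whose groups did not overlap, with at most 3 partner genes. Other genes given were called by limma, or were chosen after their values were seen. Some genes counted are not reported here by name. Members and lists were chosen with earlier results of these data known. Alternatives were other scalings, normexp, the authors' values, spot marks, floor, filters, blocks, probe averaging and leaving out each array.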

Additional observations from a re-analysis of the deposited data

How the results depend on the processing

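Across 21 alternative settings, 212 of 285 values of the counts and class medians stayed within 1.5 times or 1 replicate spread of the value given, and 73 moved. Of 833 values for single genes 675 kept direction and side of the threshold, 140 lost a call, 15 gained one and 3 changed sign: S100a10 in surviving minus dying (0.76 with normexp), and Cacna1d averaged over its probes in dying minus sham (1.02) and sham minus naive (−0.19). The cause was not tested. The counts of channel probes below stand without the share of all probes in each setting. They do not set the channels apart from other genes.

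Channel probes called by limma in surviving minus sham were 4 with quantiles, 0 with normexp, 5 with signal on all 4 arrays required, 20 with only the 4 arrays fitted, and 0 to 15 with 1 array left out. In dying minus sham they were 0 with normexp, 12 with signal required and 5 to 21 with 1 array left out, in surviving minus dying 0 to 8 with 1 array left out, and in sham minus naive 1 with only the 4 arrays. The methods filter kept, in surviving minus dying, 0 with quantiles, 0 with normexp, 1 with the authors' values and 2 to 7 with 1 array left out; in surviving minus sham 5, 4, 5 and 8 to 14. In dying minus sham it kept 4 with the probes measured on all arrays, 3 with quantiles, 0 with normexp, 2 with the authors' values, 11 with no background filter and 7 to 14 with 1 array left out. In sham minus naive it kept 1 with non-uniform spots, 1 with no filter and 0 to 5 with 1 array left out.

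The pore-forming median in surviving minus dying was 0.07 to 0.35 with 1 array left out. In surviving minus sham it was 0.45 with the upper quartile, 0.64 with the probes measured on all arrays, 0.55 with the authors' values, −1.69 with signal on all 4 arrays, −0.84 with no filter, 0.34 over all probes of a gene and −0.76 to 0.21 with 1 array left out. In dying minus sham it was −0.58, −0.30, −0.51, −2.50 and −0.20 under those settings (no filter moved it little), −0.40 with normexp and −1.61 to −0.79 with 1 array left out, and in sham minus naive 0.13 with the probes measured on all arrays and 0.19 with quantiles. The auxiliary median in surviving minus dying was 1.72 with normexp and 0.34 to 0.78 with 1 array left out. In surviving minus sham it was 0.13 with the upper quartile, 0.32 with the probes measured on all arrays, 0.19 with normexp and 0.23 with the authors' values. In dying minus sham it was −0.67, −0.39, −0.92 and −0.60 under these, −0.54 with quantiles, −1.26 with no filter and −1.57 to −1.11 with 1 array left out. With an array left out, the lone array's spread was assumed to equal that of other groups.

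With the replicate block in the fit limma called 0 channel probes in surviving minus dying, 3 in surviving minus sham, 20 in dying minus sham and 0 in sham minus naive. Deviations of same-numbered arrays from their group means, over 15250 probes, correlated at −0.19, 0.05, 0.02 and 0.01 in these comparisons, so that the arrays are taken to share only a number. With the numbers of surviving and dying arrays crossed, an alternative added after the data were seen, 0 were called. Signal over background limits the 21 genes not measured on all arrays.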
